A study of Mus musculus with 23 samples.

Results

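Apolipoproteins are the protein components of lipoprotein particles, and 10 of their genes were followed here across control liver, pre-metastatic liver, and primary tumor: Apoa1, Apoa2, Apoa4, Apoa5, Apob, Apoc1, Apoc2, Apoc3, Apoe, and Apom. They are 10 of 48897 rows of the expression table. Apoa4 was chosen by its measured level in these livers, which had been seen to be much lower in pre-metastatic than in control liver, and the other 9 genes were placed beside it. The values of the 10 genes between the 2 liver groups are therefore a description without a test. The mice were male BALB/c animals aged 4 to 6 weeks. CT26, a colon carcinoma cell line of mouse origin, was placed orthotopically in the wall of the cecum in 9 mice, and each of them gave a primary tumor and a pre-metastatic liver after 3 weeks. The 5 control livers came from sham-operated mice that received medium without cells. All tumors thus come from 1 transplanted cell line, and the 23 libraries of poly(A) RNA hold bulk tissue, in which fewer cells of a type and less RNA per cell cannot be told apart.

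Lipoproteins carry triglyceride and cholesterol in blood. The liver builds very low density lipoprotein (VLDL) around apolipoprotein B and supplies most apolipoproteins of high density lipoprotein (HDL), and enterocytes of the small intestine build chylomicrons in the same way. The exchangeable apolipoproteins move between particles, where they stabilize the surface, activate or inhibit enzymes such as lipoprotein lipase and lecithin-cholesterol acyltransferase, and bind the receptors that clear the particles. Apolipoprotein E is also made in quantity by macrophages.

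Of the 10 genes, 7 lie in 2 clusters. In the mm10 positions of the expression table, Apoa1 (chr9:46228630-46230469, plus strand), Apoc3 (chr9:46233050-46235636, minus strand), Apoa4 (chr9:46240844-46243458, plus strand), and Apoa5 (chr9:46268608-46271919, plus strand) lie within 43290 bases. Apoc2 (chr7:19671579-19677941), Apoc1 (chr7:19689480-19692659), and Apoe (chr7:19696244-19699188) lie on the minus strand within 27610 bases. Apoa2 (chr1:171221564-171226379, plus strand), Apob (chr12:7977634-8016839, plus strand), and Apom (chr17:35128997-35131752, minus strand) lie outside these clusters.

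Library totals ran from 44587556 to 79773163 counts, with medians of 56982650 for control livers, 55500961 for pre-metastatic livers, and 55927997 for tumors. The 10 genes took 5.65 to 6.43% of all counts in control livers and 3.59 to 4.73% in pre-metastatic livers, without overlap, and 0.0474 to 0.183% in tumors. The hepatocyte markers Alb, Ttr, Trf, Serpina1a, Ahsg, Fgb, Cps1, and Hpd were all above 3 counts in every group, and their summed level was 44420 to 51985 RPKM in control livers and 39634 to 86988 RPKM in pre-metastatic livers. The single markers moved both ways between the livers. At an adjusted p of 0.05 (edgeR), Trf and Fgb were higher in pre-metastatic liver (log2 fold changes 1.23 and 1.37). Cps1 and Hpd were lower (-1.61 and -1.34), and the other 4 did not pass. RPKM is the count divided by gene length and library total, on the usual scale, so levels below may be compared between genes. The livers also differed in clock phase: an index of Dbp, Per3, and Ciart against Arntl, Npas2, and Clock put 4 of 5 control livers and 5 of 9 pre-metastatic livers on the early side of a limit of 0.5. Control liver C5 and the tumors of M10 and M12 stood apart from their groups, and values that rest on them are given with and without them. Dixon's outlier test on RPKM flagged no lowest or highest value in the 30 sets of gene and group. Apoa4 in C5 was at 0.704 against a critical value of 0.71.

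In control liver Apoe (14804 ± 2335 RPKM, SD, n = 5) and Apoa1 (14558 ± 2139) had the highest levels and did not differ beyond their spread. Apoa2 followed at 5006 ± 322 RPKM, then Apoc1 (3630 ± 669), Apoa4 (2915 ± 1758), and Apoc3 (1939 ± 285), of which Apoa4 differed from neither neighbor beyond its SD. Apoa5 (674 ± 64.3 RPKM), Apob (568 ± 88.1), Apoc2 (398 ± 142), and Apom (257 ± 35.3) came last, and Apoc2 and Apom did not differ beyond their spread. In pre-metastatic liver Apoa4 had moved from the fifth to the last place, at 109 ± 50.7 RPKM (SD, n = 9), next to Apoc2 at 147 ± 18.3 RPKM, from which it did not differ beyond its SD. The plot of the levels in each liver shows both groups for every gene.

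**Figure D1:**
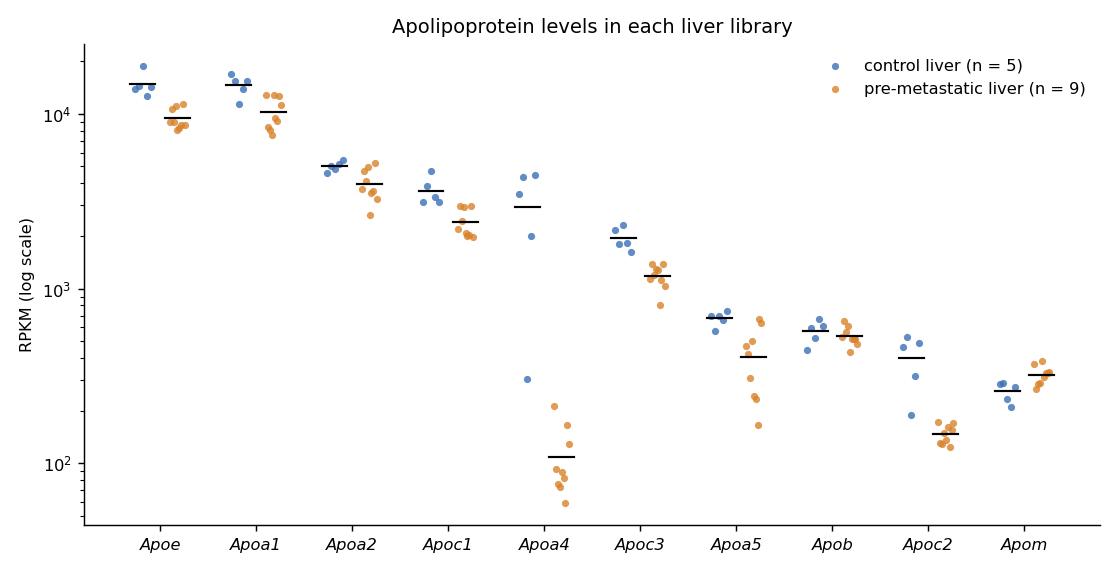
RPKM on a log scale of the 10 apolipoprotein genes in each control liver (blue, n = 5) and each pre-metastatic liver (orange, n = 9), with the mean of each group as a bar. The groups do not overlap for Apoe, Apoc1, Apoa4, Apoc3, and Apoc2. For Apoa4 the means are 2915 and 109 RPKM, and the lowest control liver, at 302 RPKM, lies near the highest pre-metastatic liver, at 213 RPKM.

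Apoa4, an apolipoprotein of chylomicrons and HDL that the intestine and, in mice, also the liver make, was at 3469, 4347, 302, 2008, and 4450 RPKM in control livers C1, C4, C5, C6, and C7. In the 9 pre-metastatic livers it was at 59.2 RPKM in the lowest (M8), 89.4 RPKM at the median, and 213 RPKM in the highest (M1). The groups did not overlap, but control liver C5 stood well below the other controls and only 1.42 times above the highest pre-metastatic liver. The log2 fold change of pre-metastatic against control liver was -4.65 (SE 0.48), a level 25.1-fold lower, which put Apoa4 at place 7 from the lowest among 16987 genes fitted. The ratio of the group means was 26.8, and it was 32.8 without C5. The counts behind these values were 30218 to 412674 in control livers and 4429 to 18934 in pre-metastatic livers, so counting error was small beside the spread between mice.

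A pair of unnamed genes on the minus strand overlap Apoa4, ENSMUSG00000074373.6 and ENSMUSG00000111282.1. Their counts were 24.2 to 29.7% and 9.33 to 15.0% of the Apoa4 count in every liver. Whether counting used the strand is not given in the sources used here, so reads of Apoa4 and of these genes cannot be told apart. Apoa5 likewise had an overlapping minus-strand gene, ENSMUSG00000111403.1, at 12.4 to 14.5% of its count in the livers. Apoa2 overlaps the minus-strand gene Tomm40l, which had 0.817 to 3.42% of the Apoa2 count in the livers. In tumors Tomm40l had 1396 to 2697 counts, against 40 to 914 for Apoa2. The tumor values of Apoa2 thus carry the same uncertainty.

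Enterocytes also make Apoa4, and the intestinal markers were therefore read beside it. In control livers Cdx1, Cdx2, Muc2, and Cdh17 were at or under 3 counts in every library, Vil1 was at most 0.0409 RPKM, and Slc26a3 at most 0.0958 RPKM. Fabp2, the intestinal fatty acid binding protein, made up nearly all of the marker sum, with 123, 232, 52.6, 201, and 308 RPKM in C1, C4, C5, C6, and C7 and 14.3 to 90.3 RPKM in pre-metastatic livers. Fabp2 was thus lowest among controls in the liver with the lowest Apoa4, and it fell between the groups by 1.74 on the log2 scale (SE 0.36, adjusted p = 0.00214, edgeR quasi-likelihood test). Of the 10 intestinal markers 6 could be tested, and besides Fabp2 2 passed the threshold, both in the other direction and at levels near 0. Krt20, an epithelial keratin, rose by 3.67 (SE 1.24, adjusted p = 0.0350) to at most 1.31 RPKM (M6), and Vil1, the brush border protein villin, rose by 2.99 (SE 1.04, adjusted p = 0.0402). Neither call was stable: Vil1 was past the threshold in 11 of 19 alternatives, with 1.95 and an adjusted p of 0.0701 without M12, and Krt20 in 9 of the 13 in which it was fitted. Krt20 fell below the count filter in the other 6, which were early-phase livers alone and any one of M4, M6, M8, M10, and M12 left out. Slc26a3 (log2 fold change 3.04, adjusted p = 0.115), Car1 (1.05, adjusted p = 0.0897), and Lgals4 (-0.57, adjusted p = 0.374) did not pass. Pre-metastatic liver M12 had the highest Vil1 (0.633 RPKM) and Slc26a3 (3.07 RPKM), with Apoa4 at 128 RPKM.

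The stretches before the starts of Apoa4, Apoc2, and Apob are shown because these 3 genes span the range of differences in the livers. They are RefSeq sequence of GRCm38.p6, cut so that they hold no annotated untranslated region, and are read 5′ to 3′ on the strand of the gene. Capitals mark matches to the letters CAAAGNNCA on either strand, a motif of the kind bound by HNF4 alpha, a nuclear receptor that drives hepatocyte genes.
Apoa4, chr9:46240594-46240695, plus strand: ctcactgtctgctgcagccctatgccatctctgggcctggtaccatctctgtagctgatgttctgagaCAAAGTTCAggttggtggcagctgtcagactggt
Apoc2, chr7:19677942-19678082, minus strand: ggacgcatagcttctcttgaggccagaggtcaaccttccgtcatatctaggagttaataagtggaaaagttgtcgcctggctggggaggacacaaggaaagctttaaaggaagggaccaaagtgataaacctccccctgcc
Apob, chr12:7977427-7977633, plus strand: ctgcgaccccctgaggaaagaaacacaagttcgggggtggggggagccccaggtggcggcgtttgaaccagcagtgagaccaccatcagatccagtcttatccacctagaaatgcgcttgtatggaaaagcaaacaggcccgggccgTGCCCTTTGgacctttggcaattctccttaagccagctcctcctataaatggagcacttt
Among the 8 genes with a window of 250 bases before a RefSeq start, Apoa4 and Apob held this motif, as did 5.49% of all 32851 windows. They are the genes with the largest and the smallest difference between the livers. Other letters were searched on both strands. The E-box CACGTG (6.02% of windows) was found for Apoa5. The core TGACG of cyclic AMP response elements (17.8% of windows) was found for Apoc2 and Apoa2. The D-box TTATGNAA (3.07% of windows) was found for none of the 8. TATAAA (12.4% of windows) was found for Apoa2, Apoa5, Apob, and Apoe. The Apoa2 matches lay before a RefSeq start at 171225054 and the Apoe matches before one at 19698621, both inside the genes. The windows before their outer starts, 171221564 and 19699188, held no such match. The percentages are of single windows, while genes such as Apoa5 were searched at several starts, so gene and window rates cannot be compared directly.

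Among the other apolipoproteins of the A group, all pre-metastatic means were lower but the groups overlapped. Apoa1, the main HDL protein and the activator of lecithin-cholesterol acyltransferase, was at 11295 (C5) to 16959 (C1) RPKM in control livers. It was at 7557 (M5), 9506 at the median, and 12830 RPKM (M1) in pre-metastatic livers, and 6 of 9 lay below every control. Its log2 fold change was -0.41 (SE 0.20). The overlap in Apoa1 came from C5 alone. Without C5 the lowest control was at 13801 RPKM, above every pre-metastatic liver, and the log2 fold change was -0.50. Apoa2, the second most abundant HDL protein, had a log2 fold change of -0.27 (SE 0.12), with 4596 to 5444 RPKM in control livers and 2626 to 5210 RPKM in pre-metastatic livers. Apoa5, which promotes lipoprotein lipase action on triglyceride, ran from 165 (M8) to 673 RPKM (M10) in pre-metastatic livers, a 4.07-fold range, against 569 to 740 RPKM in control livers. Apoa5 had a log2 fold change of -0.65 (SE 0.28), and 7 of 9 pre-metastatic livers lay below every control.

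The C apolipoproteins were lower in pre-metastatic liver without overlap. Apoc2, the obligate activator of lipoprotein lipase, was at 463, 529, 189, 318, and 490 RPKM in C1, C4, C5, C6, and C7. In pre-metastatic livers it was at 124 RPKM in the lowest (M8), 148 RPKM at the median, and 173 RPKM in the highest (M1). The lowest control was again C5, at 1.10 times the highest pre-metastatic liver. This was a log2 fold change of -1.35 (SE 0.20), a level 2.54-fold lower and the next in size after Apoa4. The ratio of the group means was 2.70, and 3.06 without C5. The readthrough gene Apoc4-apoc2 covers Apoc2 on the same strand and had 86.1 to 91.9% of its count in every liver, so reads shared between both are uncertain. Apoc3, an inhibitor of lipoprotein lipase and of particle clearance that lies between Apoa1 and Apoa4, had a log2 fold change of -0.64 (SE 0.13), with 1610 to 2301 RPKM in control livers and 806 to 1390 RPKM in pre-metastatic livers. Apoc1, which inhibits lipoprotein uptake, had a log2 fold change of -0.53 (SE 0.12), with 3111 to 4694 and 1959 to 2970 RPKM. Control liver C5 had the highest Apoc1 and Apoc3 of the controls and the lowest Apoc2 and Apoa4, so it was not low in apolipoproteins in general. The plot of Apoc2 against Apoa4 shows C5 next to the pre-metastatic livers in both genes.

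**Figure D2:**
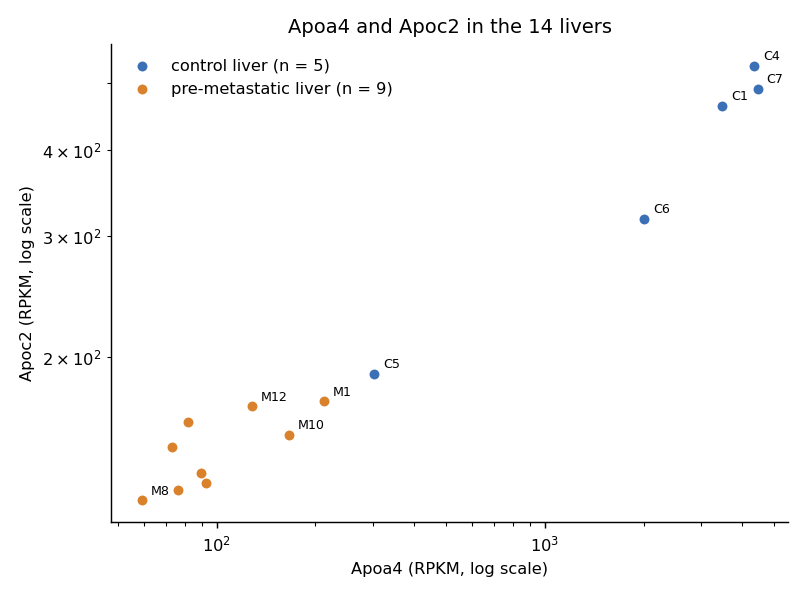
Apoc2 against Apoa4, both in RPKM on log scales, in the 5 control livers (blue) and the 9 pre-metastatic livers (orange), with some mice named. Control liver C5 (302 RPKM Apoa4, 189 RPKM Apoc2) lies next to M1 (213 and 173 RPKM), and the other 4 controls lie at 2008 RPKM Apoa4 and 318 RPKM Apoc2 or above.

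Apoe, which mediates the receptor uptake of remnant particles, was at 13883, 14378, 18796, 12661, and 14301 RPKM in C1, C4, C5, C6, and C7. In pre-metastatic livers it was at 8106 (M6), 8994 at the median, and 11308 RPKM (M10). All 9 lay below all controls, with a log2 fold change of -0.58 (SE 0.13). The 8 macrophage markers were Adgre1, Cd68, Csf1r, C1qa, C1qb, C1qc, Vsig4, and Clec4f. All 8 rose, from a summed 144 to 260 RPKM in control livers to 225 to 626 RPKM in pre-metastatic livers, while Apoe was lower. The part of macrophages in the Apoe level was not tested.

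Apob, the structural protein of VLDL and chylomicrons, was nearly equal in both groups, with 444 to 672 RPKM in control livers and 430 to 652 RPKM in pre-metastatic livers and a log2 fold change of -0.01 (SE 0.11). Apom, the HDL carrier of sphingosine-1-phosphate, was the only one of the 10 genes with a higher mean in pre-metastatic liver. It was at 284, 290, 233, 209, and 272 RPKM in C1, C4, C5, C6, and C7 and at 265 (M2), 329 at the median, and 384 RPKM (M6) in pre-metastatic livers. Its log2 fold change was 0.41 (SE 0.14), and 6 of 9 pre-metastatic livers lay above every control.

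The 10 genes had a median log2 fold change of -0.55 between the livers, and -0.53 without Apoa4, beside 0.01 for all 16987 genes fitted. By the genome-wide threshold of an adjusted p of 0.05 (edgeR), 5 of the 10 were lower (Apoa4, Apoc1, Apoc2, Apoc3, Apoe) and 1 was higher (Apom), where 13.3% of all genes were lower and 17.7% higher. The same 5 were lower without overlap, as were 6.09% of all genes. Since this contrast chose Apoa4, these counts describe the set only. The number of the 10 past the threshold was 5 to 8 over the alternatives tried, and Apom was no longer among them when any one of C5, C6, C7, M1, M6, M7, and M12 was left out, with no count filter, with the clock index as a covariate, or among early-phase livers only.

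**Figure D3:**
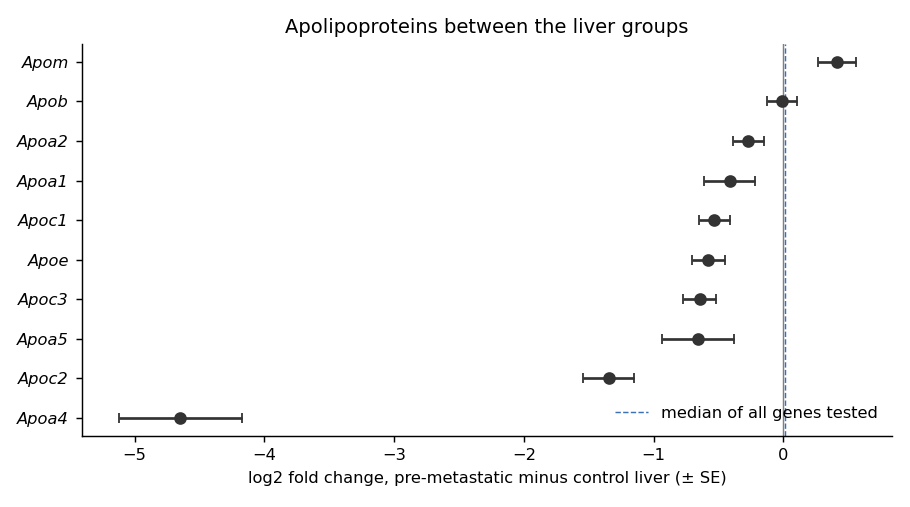
Log2 fold change of pre-metastatic against control liver for the 10 genes, as points with SE from the edgeR fit, with the median of all genes (0.01) as a dashed line. Apoa4 lies at -4.65 and Apoc2 at -1.35, 6 genes lie between -0.65 and -0.27, Apob lies at -0.01, and Apom at 0.41.

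Within the pre-metastatic livers, which the choice of Apoa4 did not use as a contrast, the level of Apoa4 varied 3.59-fold. The 5 early-phase livers had 59.2 to 89.4 RPKM and the 4 late-phase livers 93.0 to 213 RPKM. The nearest livers of the phases, M6 at 89.4 and M2 at 93.0 RPKM, were close. How many of all genes were split in this way between the phases was not counted. Among control livers the single late-phase liver, C7, had the highest Apoa4. Apoa5 was at 165 to 504 RPKM in early-phase and 419 to 673 RPKM in late-phase pre-metastatic livers, with overlap. Apoc1, Apoc2, Apoc3, and Apob overlapped between the phases as well. In early-phase livers alone, Apoa4 was at 302 to 4347 RPKM in 4 control livers and at 59.2 to 89.4 RPKM in the 5 pre-metastatic livers. This is part of the contrast that chose Apoa4, so it is a description only. The part of clock phase in that contrast was not tested.

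To ask which known partners varied with Apoa4 from mouse to mouse, 4 relations were tested over the 9 pre-metastatic livers by exact two-sided permutation of log2(RPKM + 1). For its cluster neighbor Apoa1, Spearman's rho was 0.73 (p = 0.0311, adjusted p = 0.124) and Pearson's r 0.75 (p = 0.0209, adjusted p = 0.0834), so the relation missed the threshold once the 4 tests were taken into account. Within clock phases rho was 0.80 (exact permutation p = 0.0271), and without M1 and M6 r was 0.83 (exact permutation p = 0.0226) and rho 0.71 (p = 0.0881). For Creb3l3, the liver transcription factor CREBH that drives Apoa4, rho was 0.30 (exact permutation p = 0.437, adjusted p = 0.4933) and r 0.43 (p = 0.231, adjusted p = 0.322). For Saa1, an acute-phase HDL apolipoprotein, rho was -0.38 (exact permutation p = 0.313, adjusted p = 0.4933) and r -0.44 (p = 0.241, adjusted p = 0.322). For Cyp4a14, a target of PPAR alpha, rho was 0.27 (exact permutation p = 0.4933, adjusted p = 0.4933) and r 0.10 (p = 0.800, adjusted p = 0.800), but without M5 and M7 rho was 0.93 (p = 0.00675) and r 0.76 (p = 0.0335).

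As a description, Pearson's r with Apoa4 over the same 9 livers was 0.74 for Apoc2, 0.69 for Apoa5, 0.46 for Apom, 0.18 for Apoe, 0.12 for Apoc3, 0.08 for Apoc1 and Apoa2, and -0.17 for Apob. The neighbors Apoc3 and Apoa1 thus stood apart in this measure, at 0.12 and 0.75, and the difference was not tested. Among 6004 other genes with a mean of at least 5 RPKM, the most alike were the overlapping minus-strand genes ENSMUSG00000074373.6 (r = 0.99) and ENSMUSG00000111282.1 (r = 0.97), then Npm1 (0.92), Zfas1 (0.91), and BC021614 (0.90). The least alike were Glud1 (-0.95) and Tuba4a, Sdccag3, Faf2, and Ebp (all -0.94). Library, clock phase, and tissue are shared by these points.

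The genes around the apolipoproteins were counted in 7 lists, and of 66 genes listed, 62 were tested between the livers, 10 rose, and 13 fell past an adjusted p of 0.05, beside 31.0% of all genes. Among other apolipoproteins, 1 of 9 fell and 2 rose. Apoc4, which lies between Apoc2 and Apoc1, fell from 1786 ± 128 to 1007 ± 160 RPKM, a log2 fold change of -0.75 (SE 0.11, adjusted p = 0.000262), without overlap. Clu, the HDL-borne chaperone clusterin, rose by 0.52 (SE 0.15, adjusted p = 0.0135), a call lost among early-phase livers (adjusted p = 0.0552), and Apol10b rose by 3.02 (SE 0.63, adjusted p = 0.00221) at levels of at most 0.349 RPKM.

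In the assembly and secretion of VLDL, 2 of 10 genes fell and none rose. Dgat1, which makes triglyceride, fell from 12.4 ± 1.10 to 5.88 ± 0.787 RPKM (log2 fold change -1.0, SE 0.09, adjusted p = 7.71e-06), without overlap. Mttp, the transfer protein that loads lipid onto apolipoprotein B, fell from 78.6 ± 9.46 to 61.3 ± 5.39 RPKM (log2 fold change -0.28, SE 0.09, adjusted p = 0.0269), a call lost when C1, C6, C7, or M8 was left out, without the count filter, and in early-phase livers alone (adjusted p = 0.0504 to 0.119). In the group that matures HDL, 2 of 8 rose and 1 fell. Pltp, the phospholipid transfer protein, rose from 8.96 ± 1.69 to 16.3 ± 6.16 RPKM (log2 fold change 0.95, SE 0.23, adjusted p = 0.00663), and the HDL receptor Scarb1 fell from 100.02 ± 18.8 to 64.9 ± 6.10 RPKM (log2 fold change -0.54, SE 0.14, adjusted p = 0.00872). Abcg1, a cholesterol exporter, rose by 0.69 (SE 0.23, adjusted p = 0.0321), a call lost without any one of C1, C6, C7, M1, M4, and M5 and in early-phase livers alone (adjusted p = 0.0504 to 0.128).

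Of 7 lipases and their controllers, 1 fell. Angptl8, a feeding-induced inhibitor of lipoprotein lipase, was at 374, 378, 589, 363, and 218 RPKM in C1, C4, C5, C6, and C7 and at 31.5 to 317 RPKM in pre-metastatic livers. Its log2 fold change was -1.80 (SE 0.51, adjusted p = 0.0153), and the groups overlapped in M6 alone. With the clock index as a covariate the adjusted p was 0.0522. Lpl, lipoprotein lipase itself, had a log2 fold change of 0.16 (SE 0.34, adjusted p = 0.749), which was -0.16 without M6.

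Among 8 receptor genes tested, 3 rose and 2 fell. Lrp1, a large remnant receptor, rose from 72.2 ± 8.35 to 110.5 ± 11.7 RPKM (log2 fold change 0.70, SE 0.12, adjusted p = 0.000614), without overlap. Sorl1, a sorting receptor, rose by 1.36 (SE 0.32, adjusted p = 0.00486) at levels under 0.45 RPKM, and Lsr, the lipolysis-stimulated lipoprotein receptor, by 0.72 (SE 0.20, adjusted p = 0.0147). Vldlr, the VLDL receptor, fell from 0.879 ± 0.857 to 0.194 ± 0.0762 RPKM (log2 fold change -2.08, SE 0.40, adjusted p = 0.00131). C7 set much of this size, at 2.40 RPKM, and without it the log2 fold change was -1.31 (adjusted p = 0.00386). It was -1.29 (adjusted p = 0.0247) among early-phase livers only. Sdc1, a proteoglycan that takes up remnants, fell by 0.53 (SE 0.15, adjusted p = 0.0141).

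Of 17 transcription factors that act on these genes, 2 rose and 6 fell. Srebf1, a driver of fatty acid synthesis, rose from 11.5 ± 5.92 to 45.7 ± 13.7 RPKM (log2 fold change 2.07, SE 0.27, adjusted p = 0.000110), and Srebf2, the driver of cholesterol synthesis, rose from 7.11 ± 0.595 to 13.8 ± 2.86 RPKM (log2 fold change 1.05, SE 0.17, adjusted p = 0.000449). Foxa2, a pioneer factor of hepatocyte genes, fell by 1.32 (SE 0.28, adjusted p = 0.00270), and Esrra, a nuclear receptor of energy metabolism, by 0.84 (SE 0.17, adjusted p = 0.00205). Hnf4a was at 173, 264, 316, 274, and 157 RPKM in C1, C4, C5, C6, and C7 and at 88.2 to 168 RPKM in pre-metastatic livers. Its log2 fold change was -0.70 (SE 0.20, adjusted p = 0.0153), and without C5, its highest control, -0.58 (adjusted p = 0.0544). C5 thus had the highest Hnf4a and the lowest Apoa4 among controls. Creb3l3 was at 158 ± 12.6 RPKM in controls and at 128 ± 37.3 RPKM in pre-metastatic livers (log2 fold change -0.22, SE 0.19, adjusted p = 0.391), with its lowest values, 67.5 and 72.1 RPKM, in M6 and M8. Ppara had a log2 fold change of 0.52 (SE 0.35, adjusted p = 0.280). In the list for editing of the Apob transcript, 1 of 3 rose: Apobec1, the editing deaminase, went from 3.05 ± 0.622 to 6.90 ± 2.39 RPKM (log2 fold change 1.25, SE 0.21, adjusted p = 0.000534), without overlap. The plot of the 62 genes shows list medians between -0.27 and 0.15 on the log2 scale.

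**Figure D4:**
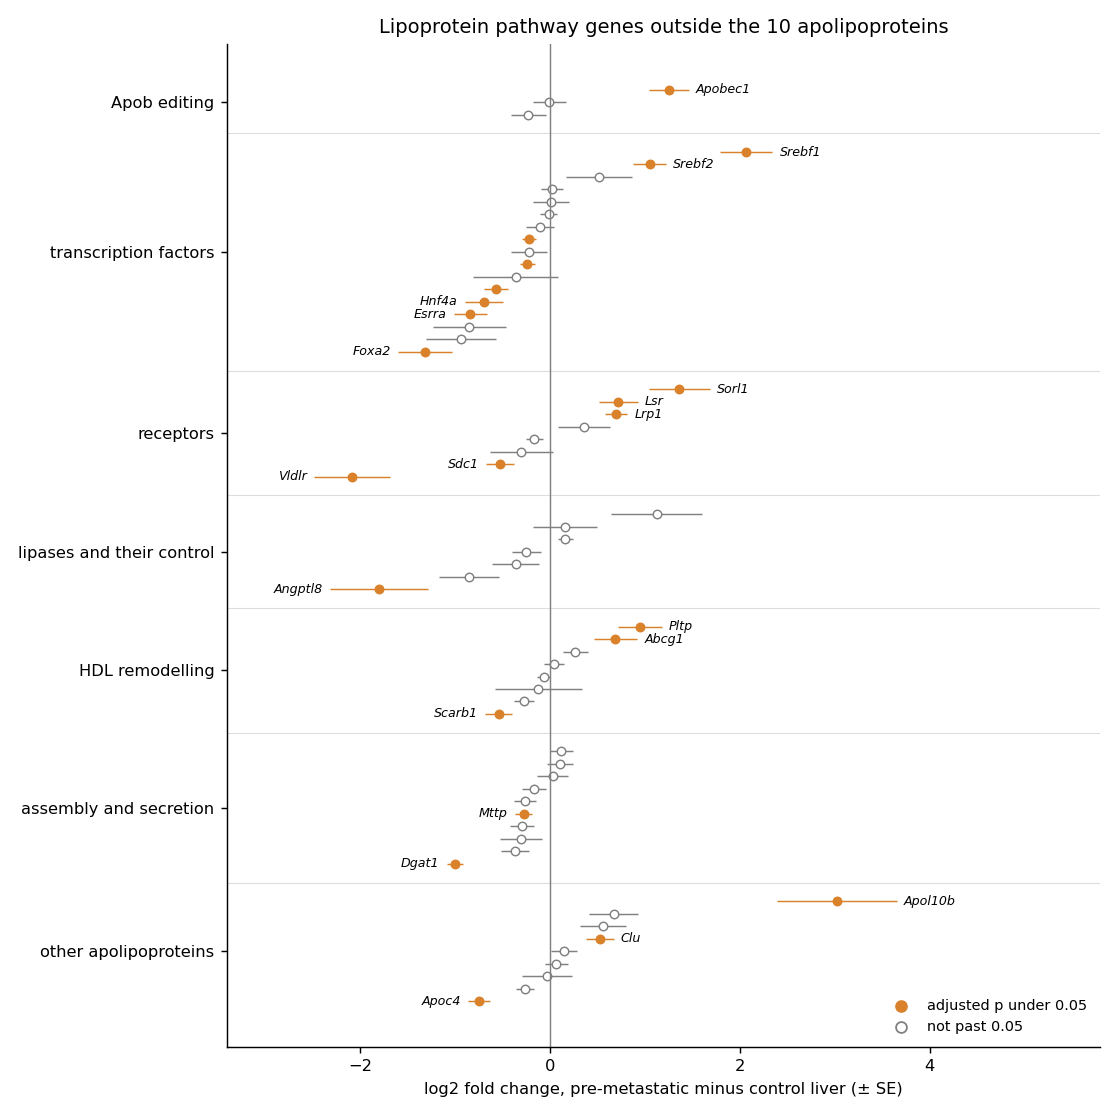
Log2 fold change of pre-metastatic against control liver, with SE, for 62 tested genes in 7 lists, filled orange where the adjusted p (edgeR) was under 0.05 (10 higher, 13 lower) and open where it was not (39). Apol10b lies at 3.02, Srebf1 at 2.07, Angptl8 at -1.80, and Vldlr at -2.08.

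All 10 genes were lower in primary tumor than in the pre-metastatic liver of the same mice, each with a genome-wide adjusted p past the threshold and without overlap. In this contrast, 40.5% of all genes were lower past the threshold and 14.5% were lower without overlap. The values in tumors fell into 2 kinds. Apoe and Apoc2 kept a few percent of the liver level, and the other 8 genes were at a fraction of a percent in most tumors.

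Apoe in tumors was at 292 RPKM in the lowest (M1), 497 RPKM at the median, and 1084 RPKM in the highest (M2), or 627 ± 286 RPKM (SD, n = 9). Its counts were 29139 to 107334, and every tumor lay below every liver. Its log2 fold change was -5.09 (SE 0.29, adjusted p = 1.67e-12). Apoc2 was at 2.21 (M8), 3.48 at the median, and 6.202 RPKM (M6), with 94 to 336 counts and a log2 fold change of -6.40 (SE 0.25, adjusted p = 7.00e-15). Relative to the liver of the same mouse, Apoe was at 3.24 to 12.5% and Apoc2 at 1.64 to 4.57% over the 9 mice.

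Apoa4 was near the limit of counting in 7 tumors, with 2, 8, 2, 1, 3, 1, and 0 counts in M1, M2, M4, M5, M6, M7, and M8. The tumors of M10 and M12 held 237 and 185 counts, or 2.01 and 2.04 RPKM. The log2 fold change over all 9 tumors was -8.98 (SE 1.05, adjusted p = 1.21e-07), and -13.14 without these 2 tumors, so the size of the difference was set by M10 and M12. Apom was at 0.175 to 1.62 RPKM, with a log2 fold change of -10.39 (SE 0.46, adjusted p = 5.56e-14), and of -11.19 without M10 and M12. The other 6 genes had log2 fold changes of -10.87 to -11.21 and, without M10 and M12, of -12.68 to -13.59.

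The tumors of M10 and M12 were also highest in hepatocyte markers, with a summed 206 and 380 RPKM against 21.98 to 106 RPKM in the other 7 tumors. In those 7 tumors the sum was mostly Trf, which ran from 15.8 to 104 RPKM over all 9. Alb, the albumin gene, was at 2.97 to 15.0 RPKM in the 7 and at 86.4 and 173 RPKM in M10 and M12. Relative to the liver of the same mouse, Alb was at 0.00841 to 0.0727% in 7 mice and at 0.254 to 0.419% in M10 and M12. Apoa1 was at 0.0128 to 0.102% in the 7 mice and at 0.247 to 0.491% in M10 and M12, close to Alb in both. The share of Apoa1 was 0.974 to 1.88 times that of Alb over the 9 mice. Apob lay at 0.440 to 1.56 times the share of Alb, and Apoc3 at 0.305 to 2.39 times. The ranges were wider for Apoc1 (0.643 to 3.72 times), Apoa2 (0.704 to 4.12 times), and Apoa5 (0.354 to 5.003 times). Apoa4 in M10 and M12, at 1.21 to 1.59% of the liver, was 3.80 to 4.78 times the share of Alb, within the 0 to 5.10 times of the other 7 mice, which rest on 0 to 8 counts a tumor. The intestinal marker sums of these 2 tumors, 36.1 and 87.9 RPKM, lay within or below the 41.5 to 116 RPKM of the other 7. In tumors these sums were mostly Krt20, at 27.8 to 113 RPKM. Fabp2 had 16 and 27 counts in M10 and M12. It had 112 counts in M2, 4 in M4, and 0 in M1, M5, M6, M7, and M8. The part of liver RNA in the tumor values was not tested.

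Apoe, Apoc2, and Apom were above the share of Alb in 9 of 9 mice. The share of Apoe was 19.3 to 1137 times that of Alb, that of Apoc2 7.34 to 544 times, and that of Apom 1.15 to 5.53 times, as the plot of tumor against liver levels shows. The shares of Apoe and Apoc2 in M10 and M12, 4.91 to 12.5% and 3.07 to 3.78%, overlapped those of the other 7 mice, 3.24 to 10.2% and 1.64 to 4.57%, unlike the shares of Alb. M12 had the highest share of Apoe.

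**Figure D5:**
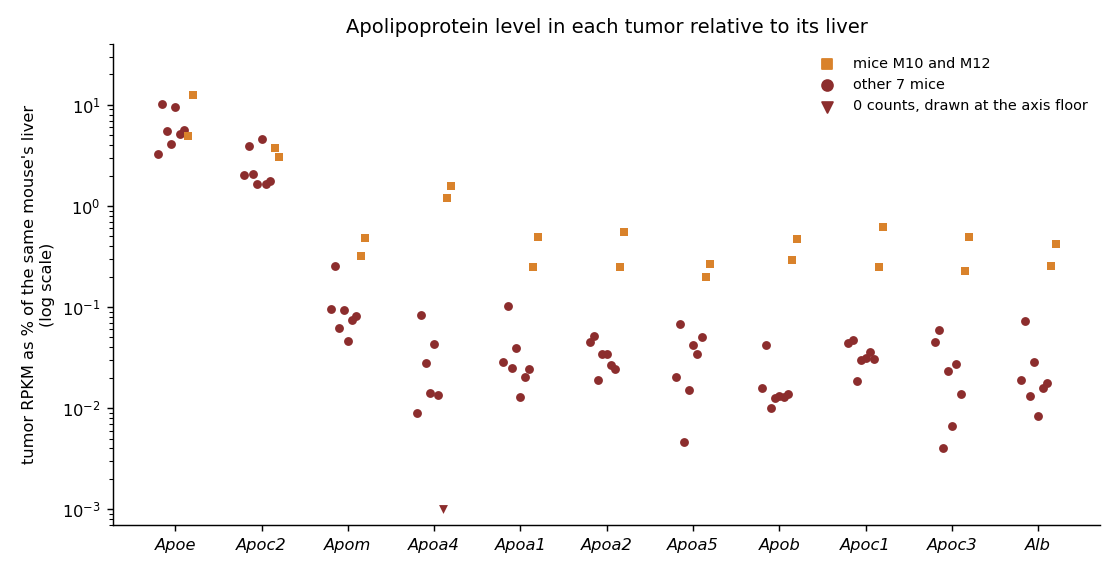
RPKM in each tumor as a percent of the liver of the same mouse, on a log scale, for the 10 apolipoprotein genes and Alb, with mice M10 and M12 as orange squares, the other 7 mice as red points, and the tumor with 0 counts as a triangle at the floor. Apoe lies between 3.24 and 12.5% and Apoc2 between 1.64 and 4.57%, while the other genes lie at 0.253% or lower in the 7 mice, and M10 and M12 stand above the 7 in all genes except Apoe and Apoc2.

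Since macrophages make Apoe, its level in tumors was read beside the summed macrophage markers, a relation chosen after the tumor values had been seen. The markers summed to 692 to 1862 RPKM in tumors, and tumors M1 and M2 were lowest and highest in both measures. Over 9 tumors, Spearman's rho of Apoe with the sum was 0.82 (exact permutation p = 0.0108, adjusted for 2 relations p = 0.0215) and Pearson's r was 0.81 (p = 0.00856, adjusted p = 0.0171). Without M1 and M2, rho was 0.61 (exact permutation p = 0.167) and r 0.55 (p = 0.215), so the relation rests on those 2 tumors. For Apoc2, rho was 0.18 (exact permutation p = 0.644, adjusted p = 0.644) and r 0.31 (p = 0.405, adjusted p = 0.405).

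With the mouse as a replicate block, all 10 genes stayed past the threshold against pre-metastatic liver, with log2 fold changes of -5.21 for Apoe, -6.48 for Apoc2, and -10.65 to -13.06 for the other 8. DESeq2, which by default replaces outlying counts with a trimmed mean over all libraries of the fit, gave -3.22 to -4.28 for Apoa2, Apob, Apoc1, and Apoc3, and -10.94 to -11.29 for the same genes without that replacement.

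Against control liver, a contrast that shares its tumors with the one above, all 10 genes were again lower past the threshold and without overlap, where 38.1% of all genes were lower past it and 17.1% lower without overlap. The log2 fold change was -5.65 (SE 0.31, adjusted p = 6.06e-11) for Apoe, -7.73 (SE 0.33, adjusted p = 3.26e-12) for Apoc2, -9.96 (SE 0.44, adjusted p = 4.05e-12) for Apom, and -13.66 (SE 1.62, adjusted p = 8.85e-07) for Apoa4. Over all 9 tumors, Apoa4 had the smallest difference of the 8 low genes against pre-metastatic liver and the largest of the 10 against control liver. Without M10 and M12 its log2 fold change against control liver was -17.78, and that of Apom was -10.75.

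Some other apolipoproteins had their own tumor levels. Apod, a lipocalin rather than a relative of the exchangeable apolipoproteins, was at 31.6 ± 16.5 RPKM in tumors and at 0.1003 ± 0.106 and 0.0991 ± 0.207 RPKM in control and pre-metastatic livers, without overlap. Clu was at 62.9 ± 14.3 RPKM in tumors against 731 ± 106 and 994 ± 118 RPKM in the livers. Apol9a was at 31.2 ± 12.5 RPKM in tumors, against 30.3 ± 9.07 and 42.8 ± 15.7 RPKM in the livers. These 3 genes were picked for the tumor comparison after their values had been seen, and no test was made of them there.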

How the data were processed

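The authors deposited 1 table with raw counts and RPKM of 48897 genes in 23 libraries (poly(A) RNA, NEBNext Ultra). The submitters' processing notes name HISAT2, HTSeq 0.6.0, and mm10. The annotation release and strand setting are not given in the sources used here. RPKM recomputed from the deposited counts differed by at most 1.75e-06 of a value, and 2 symbols on 2 lines were summed. Tests used the counts, with edgeR 4.0.16 (quasi-likelihood, TMM, Benjamini-Hochberg, two-sided, genes reaching 10 counts in 5 or more libraries, or in 9 for tumor against pre-metastatic liver), checked on simulated data. The SE is the log2 fold change divided by the root of the F statistic. Alternatives were DESeq2 1.42.0, upper quartile scaling, no filter, left-out mice, clock phase, and mouse as a block. Exact permutation used Python 3.11.15. The nearest replicates differed well beyond counting noise (49.3 chi-square per degree of freedom).

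Tumor and pre-metastatic liver of a mouse come from the same animal by their labels. Their deviations from the group means correlated at 0.0727 on average over 9 mice (2 above 0.1) and at -0.00935 between mice. The 10 genes and all lists were chosen with earlier results of these data known. Named pathway genes are the up to 3 largest rises and falls of each list past an adjusted p of 0.05, plus Creb3l3, Hnf4a, Ppara, Mttp, Lpl, and Apobec1. Some genes of the receptor list are not reported here. P-values of the edgeR fits rest on the spread between mice within a group. The main fit of tumor against pre-metastatic liver ignored the pairing by mouse, which the replicate block took into account. Permutation p-values rest on reordering the values between mice.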

Additional observations from a re-analysis of the deposited data

How the results depend on the processing

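The numbers of genes past the threshold stayed within 1.5 times of the reported ones under every alternative. Between the livers 5270 genes passed, and 4271 to 5284 with 1 mouse left out. In tumor against control liver 15896 passed, and 14839 to 14956 with 1 control left out. In tumor against pre-metastatic liver 15022 passed, and 14929 with the replicate block, which ended no call for the 10 apolipoproteins. Upper quartile scaling moved the median of all genes from 0.09 to 0.29 and from 0.18 to 0.36 (log2) in the tumor contrasts, far less than any apolipoprotein difference there. The log2 fold change of Ppara turned to -0.031 with the clock index as a covariate and to -0.11 in early-phase livers, and that of Lpl ran from -0.16 to 0.30 with 1 mouse left out, none past the threshold. Within clock phases rho of Apoa4 turned to -0.35 with Creb3l3 and to 0.16 with Saa1. Without 2 livers it was 0.93 with Cyp4a14 and 0.71 with Apoa1. The causes were not tested. The fits without M10 and M12, DESeq2 without replacement, and the macrophage relation were added after seeing the data. Depth limits Apoa4 in 7 tumors, at 8 counts or fewer.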
